A study of Mus musculus with 15 samples.

Results

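The 34 genes described here encode lysosomal enzymes, proteins of the lysosomal membrane and parts of the proton pump that acidifies the lysosome, together with the transcription factors Tfeb and Tfe3. A gene was found on the array through the RefSeq identifier of its probe. A probe had to be well above background in 3 or more samples of some group, and the brightest such probe stood for the gene. This gave 33 of the 34 genes, out of 25251 genes or unnamed transcripts that passed the same filter. Cd68, a glycoprotein of macrophage lysosomes, was not analysed here. Each of the 33 genes was well above background in all 15 samples, so none of them entered through a single group.

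The study compared 2 ways of bringing rod-like carbon nanotubes, stiff fibre-like particles called rCNT here, into the lungs of female C57BL/6 mice aged 7 to 8 weeks. The aspirated rCNT group (n = 4) had 10 µg per day in 50 µl of buffered saline (PBS), given by oropharyngeal aspiration for 4 days, and the aspirated PBS group (n = 4) had the saline alone. The inhaled rCNT group (n = 3) breathed an aerosol of 6.2 to 8.2 mg/m3 for 4 h per day over 4 days, and the untreated group (n = 4) was the control of inhalation. Lung tissue was taken 24 h after the last exposure, and no group carried an altered gene. How many mice made up a sample is not given, and array names in the inhalation arm read as pools, so the p-values cover the spread among samples and perhaps not that among mice.

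Each sample was 1 channel (Cy3 or Cy5) of a 2-colour Agilent array, and values are log2 intensities after background correction and quantile normalisation. Between 54.6% and 64.7% of the spots of a sample were well above background, no spot was saturated, and the number of arrays limits the precision. All 8 samples of the aspiration arm were on slide 1, and those of the inhalation arm were on slides 2 and 3. Inhaled rCNT replicate 2 and untreated replicate 4 were the 2 channels of a single array, and untreated replicate 1 carries a title of a PBS aspiration against untreated in its remaining labels. Counts without that array, or without that replicate, stand beside the results they touch or within the ranges given for leaving out a sample.

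Lysosomes break down proteins, glycans and lipids that reach them from outside the cell or through autophagy. Their hydrolases work at acidic pH, which the vacuolar proton pump (V-ATPase) maintains, and membrane proteins such as Lamp1 and Lamp2 line the organelle. In the lung, macrophages are rich in lysosomes and take up inhaled particles, and type 2 cells store surfactant in a lysosome-related organelle. TFEB and TFE3 are transcription factors that raise the expression of many lysosomal genes through a promoter element built around the letters CACGTG, and their activity is set largely by phosphorylation and by their location in the cell.

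Promoters are shown first because that element links the genes to the 2 transcription factors in the set. The windows are RefSeq sequences (assembly GRCm38.p6) from 250 bases before to 50 bases after the annotated start, and 28 of the 34 genes have such a window. CACGTG, which reads the same on both strands, was in a window of 11 of these 28 genes (39.3%), against 8.09% of all 27025 genes with a window and 7.15% of all 32851 windows. The longer TCACGTG, searched on both strands and always containing CACGTG, was in a window of 10 of the 28 genes (35.7%), against 4.29% of all genes. The last 120 bases before the start are printed below for 5 genes that hold the element there and 3 that do not, 5′ to 3′ on the strand of the gene, with CACGTG in capitals. They are at chr8:13159041-13159160 (+) for Lamp1, chr8:3500399-3500518 (+) for Mcoln1, chr11:101069974-101070093 (+) for Naglu, chr9:114400958-114401077 (+) for Glb1, chr7:142387828-142387947 (-) for Ctsd, chr2:174439040-174439159 (-) for Ctsz, chr7:88277965-88278084 (+) for Ctsc and chr5:130003050-130003169 (-) for Gusb.
Lamp1: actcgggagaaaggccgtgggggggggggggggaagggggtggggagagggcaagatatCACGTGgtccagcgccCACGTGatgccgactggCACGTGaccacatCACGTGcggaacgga
Mcoln1: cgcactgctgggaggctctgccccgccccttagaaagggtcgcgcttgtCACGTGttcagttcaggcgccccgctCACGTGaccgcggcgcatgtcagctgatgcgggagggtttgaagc
Naglu: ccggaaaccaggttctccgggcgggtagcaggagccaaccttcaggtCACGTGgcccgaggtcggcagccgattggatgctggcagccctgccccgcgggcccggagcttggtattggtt
Glb1: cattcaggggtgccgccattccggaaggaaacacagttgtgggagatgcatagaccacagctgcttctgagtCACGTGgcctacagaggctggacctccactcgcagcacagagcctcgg
Ctsd: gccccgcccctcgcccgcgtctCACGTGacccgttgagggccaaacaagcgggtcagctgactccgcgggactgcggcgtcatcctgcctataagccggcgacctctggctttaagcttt
Ctsz: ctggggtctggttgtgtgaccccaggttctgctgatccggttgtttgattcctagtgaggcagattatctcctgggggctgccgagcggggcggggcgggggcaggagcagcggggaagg
Ctsc: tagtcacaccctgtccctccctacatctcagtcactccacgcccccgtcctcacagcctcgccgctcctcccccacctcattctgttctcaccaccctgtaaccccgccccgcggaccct
Gusb: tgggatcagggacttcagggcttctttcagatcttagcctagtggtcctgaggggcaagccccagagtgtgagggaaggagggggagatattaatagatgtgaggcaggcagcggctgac

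Lamp1 held the letters 4 times within this stretch and Mcoln1 2 times, while Naglu, Glb1 and Ctsd held them 1 time each. The windows of Ctsz, Ctsc and Gusb, which were among the genes that rose most after aspiration, did not hold them. Among the genes measured and with a window, the 11 with CACGTG had a median log2 change of 0.21 after aspiration (6 higher, 3 lower) and the 16 without it a median of 0.40 (11 higher, 0 lower). After inhalation the medians were -0.28 with the element (3 higher, 7 lower) and -0.31 without it (1 higher, 9 lower). Gla, Mcoln1 and Sgsh were the 3 lower after aspiration and the 3 higher after inhalation, and none of these calls passed under every planned setting. Of everything tested, 20.6% rose and 26.5% fell after aspiration, and 28.4% rose and 32.5% fell after inhalation. Whether the element goes with a change was not tested. A match is a description of letters and not evidence that a factor binds there.

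After aspiration, most of the 33 lysosomal genes were higher in the exposed lungs. With limma and Benjamini-Hochberg adjustment over all 25251 genes or transcripts at a threshold of 0.05, 21 genes rose and 3 fell, with a median log2 change of 0.26. Over everything tested, 47.2% passed that threshold (20.6% higher and 26.5% lower), and the median change was -0.04. In 18 genes all 4 aspirated rCNT samples lay above all 4 PBS samples and in 1 gene all lay below, against 19.2% and 23.3% of everything tested. The rises were led by the proteases Ctsb, Ctsz and Ctsc, whose intensities were more than doubled.

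After inhalation, most of the same 33 genes were lower in the exposed lungs. Against the untreated samples 19 genes fell and 4 rose, with a median log2 change of -0.29. Over everything tested, 60.8% passed (28.4% higher and 32.5% lower) with a median of -0.02. All 3 inhaled samples lay below all 4 untreated samples in 19 genes and above them in 2, against 29.1% and 25.7% of everything tested. With the slide as a block 19 genes fell and 3 rose, against 32.2% and 28% of everything tested. Within slide 2, which held 1 inhaled and 3 untreated samples, 15 fell and 2 rose, and within slide 3, with 2 inhaled samples and 1 untreated sample, 13 fell and 3 rose. Both of these fits have a single sample in 1 arm, take their spread from all groups and assume that the lone sample varies like the others. Of everything tested, 48.8% passed within slide 2 and 42.6% within slide 3. Without the shared array 18 fell and 5 rose, with 56.4% of everything tested passing.

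Of the 33 genes, 13 rose after aspiration and fell after inhalation, and 3 fell after aspiration and rose after inhalation. Over everything tested, 7.39% showed the first pattern and 8.27% the second. A further 8 rose after aspiration without passing after inhalation, 6 fell after inhalation and 1 (Lamp2) rose after inhalation without passing after aspiration, and Tpp1 and Tfeb passed in neither. The median centring of each channel, in place of quantile normalisation, moved the median of everything tested after inhalation to -0.15 and that of the 33 genes to -0.66, with 27 lower and 0 higher. Of everything that passed after inhalation, 46.6% was higher with quantile normalisation and 27.5% with median centring. With median centring, 15.2% of everything tested was higher and 40.1% lower.

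**Figure D1:**
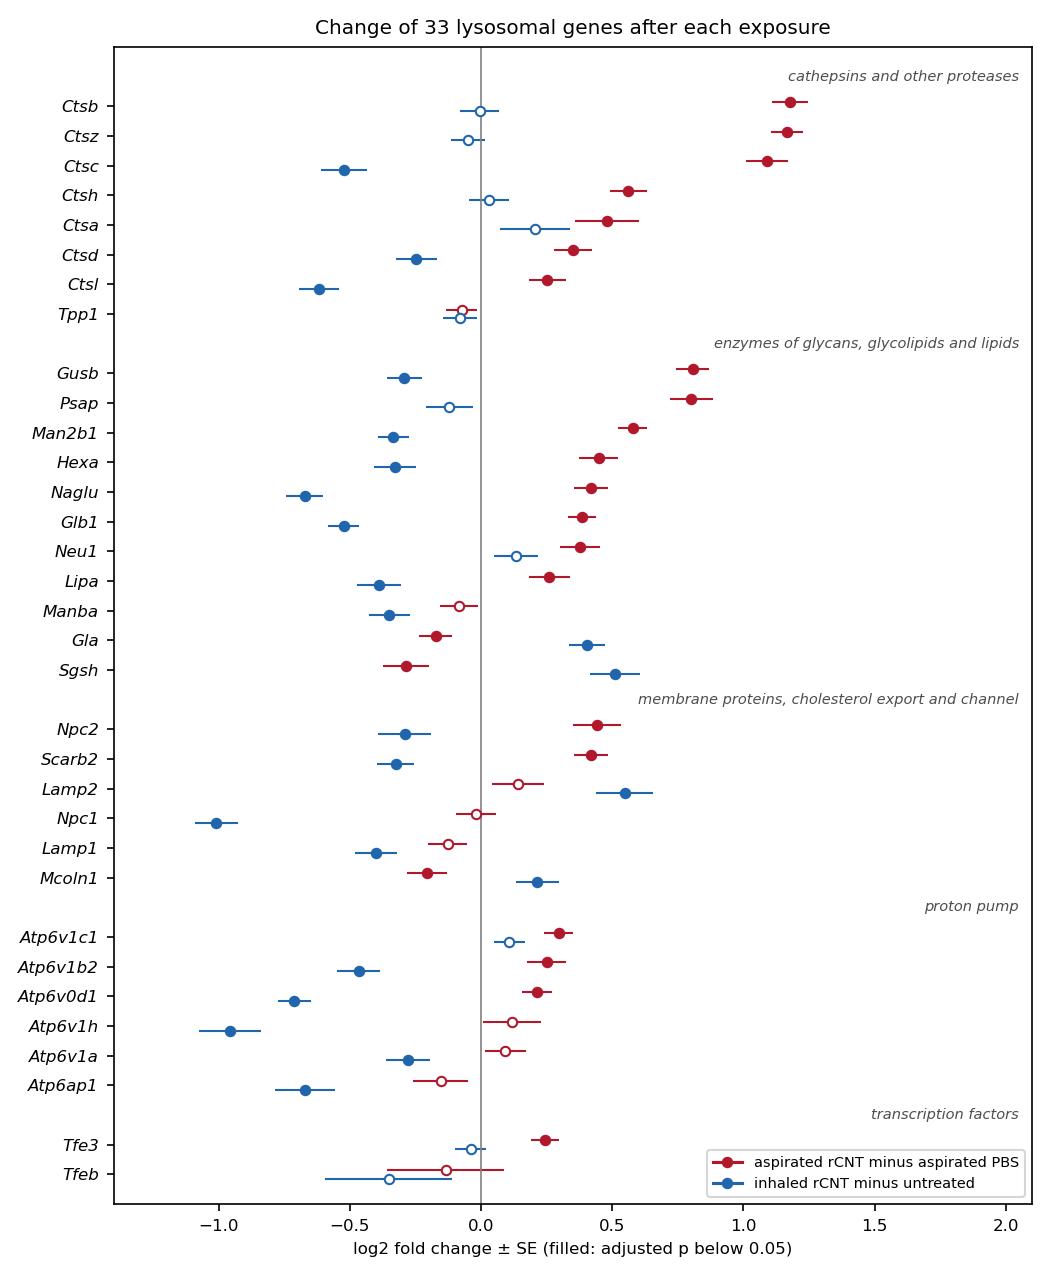
Log2 fold change with its standard error (horizontal axis) of 33 lysosomal genes, grouped by role, for aspirated rCNT minus aspirated PBS (red) and inhaled rCNT minus untreated (blue). Filled points passed an adjusted p of 0.05. Red points lie mostly right of 0, where 21 genes rose, and blue points mostly left of it, where 19 fell.

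Among the 8 proteases, 7 rose after aspiration and none fell, and 3 fell after inhalation and none rose. The shares of everything tested were 20.6% higher and 26.5% lower after aspiration, and 32.5% lower and 28.4% higher after inhalation. The count after inhalation depends on the scaling. All 8 were lower under median centring (median -0.51), where 40.1% of everything tested was lower. Under cyclic loess 2 were lower and 2 higher (median 0.05), where 25.8% and 31.2% of everything tested were. Ctsb (cathepsin B, a cysteine protease) measured 15.15, 15.25, 15.15 and 15.24 in aspirated rCNT lungs, against 14.02, 13.99, 14.00 and 14.07 in aspirated PBS lungs. The 2 groups lay far apart, with a log2 change of 1.18 ± 0.07 (SE, 2.26-fold, adjusted p = 1.35e-09, limma). After inhalation Ctsb measured 14.65, 14.47 and 14.46 in rCNT lungs, against 14.53, 14.65, 14.59 and 14.37 in untreated lungs. The inhaled and untreated samples overlapped throughout, and both lay between the aspirated rCNT and the PBS samples.

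Ctsz (cathepsin Z, a carboxypeptidase) measured 14.30, 14.36, 14.34 and 14.32 in aspirated rCNT lungs, against 13.05, 13.30, 13.14 and 13.17 in aspirated PBS lungs. Its rise of 1.17 ± 0.06 (2.24-fold, adjusted p = 3.35e-10, limma) came with exposed samples that lay close together. After inhalation it measured 13.16, 13.36 and 13.22 in rCNT lungs, against 13.23, 13.43, 13.31 and 13.29 in untreated lungs, and these groups overlapped (log2 change -0.05 ± 0.06, adjusted p = 0.53, limma).

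Ctsc (cathepsin C, which activates the serine proteases of immune cells) rose against PBS lungs after aspiration and fell against untreated lungs after inhalation. It measured 12.64, 12.75, 12.57 and 12.79 in aspirated rCNT lungs, against 11.69, 11.47, 11.63 and 11.61 in aspirated PBS lungs, a rise of 1.09 ± 0.08 (2.13-fold, adjusted p = 2.51e-08, limma). In inhaled rCNT lungs it measured 11.50, 11.80 and 11.66, against 12.20, 11.96, 12.22 and 12.28 in untreated lungs, with a log2 change of -0.52 ± 0.09 (adjusted p = 9.46e-05, limma). Neither pair of groups overlapped. The inhaled samples lay at the level of the PBS samples, and the untreated samples lay above both.

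Ctsh (cathepsin H, an aminopeptidase) measured 15.64, 15.82, 15.75 and 15.58 in aspirated rCNT lungs, against 15.07, 15.15, 15.09 and 15.23 in aspirated PBS lungs. All exposed samples lay above all PBS samples (0.56 ± 0.07, adjusted p = 7.91e-06, limma), while the inhaled and untreated samples overlapped. Ctsl (cathepsin L, a cysteine protease) had its larger change after inhalation, measuring 13.57, 13.40 and 13.54 in inhaled rCNT lungs, against 14.16, 14.03, 14.07 and 14.10 in untreated lungs. The groups did not overlap, with a change of -0.62 ± 0.08 (1.53-fold lower, adjusted p = 4.46e-06, limma). After aspiration Ctsl rose by 0.25 ± 0.07 (adjusted p = 0.00781, limma), although its groups overlapped.

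Ctsd (cathepsin D, an aspartic protease) rose by 0.35 after aspiration and fell by 0.25 after inhalation, and Ctsa (cathepsin A, which also protects Neu1 and Glb1) rose by 0.48 after aspiration. Tpp1, a tripeptidyl peptidase, changed by -0.07 ± 0.06 after aspiration and -0.08 ± 0.06 after inhalation, and passed in neither. The fall of Ctsd was lost without inhaled rCNT replicate 2, within each slide, without a dye term and with cyclic loess normalisation, and over all planned settings its change ran between -0.88 and -0.12.

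**Figure D2:**
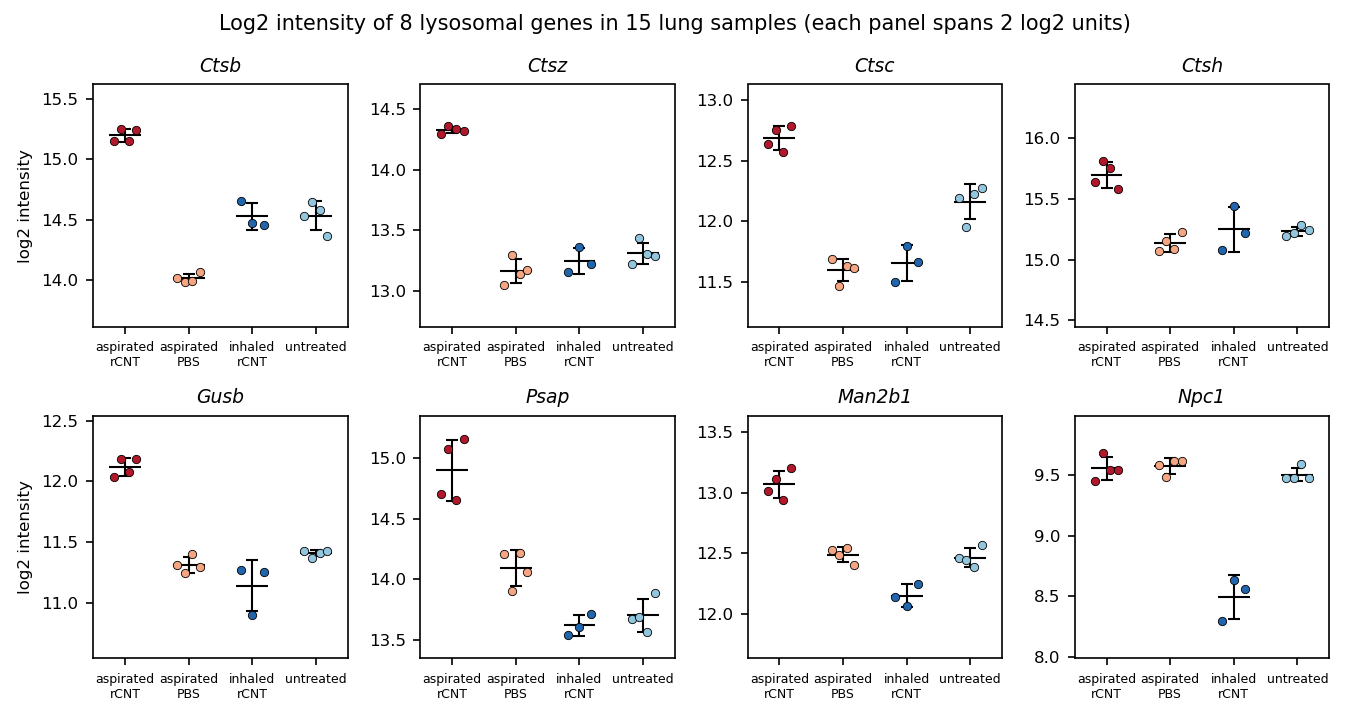
Log2 intensity (vertical axis, each panel spanning 2 log2 units) of 8 lysosomal genes in aspirated rCNT, aspirated PBS, inhaled rCNT and untreated lungs. Points are samples, and bars give the mean ± SD (n = 4, 4, 3 and 4). The aspirated rCNT samples stand above all PBS samples in every panel except that of Npc1, where the inhaled rCNT samples stand below all others.

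Of the 11 enzymes and activators that degrade glycans, glycolipids and lipids, 8 rose and 2 fell after aspiration, and 2 rose and 7 fell after inhalation. The shares of everything tested were 20.6% higher and 26.5% lower after aspiration, and 28.4% higher and 32.5% lower after inhalation. Gusb (beta-glucuronidase) measured 12.04, 12.18, 12.08 and 12.18 in aspirated rCNT lungs, against 11.31, 11.25, 11.40 and 11.29 in aspirated PBS lungs. The groups were well separated, with a rise of 0.81 ± 0.06 (1.75-fold, adjusted p = 3.61e-08, limma). In inhaled rCNT lungs it measured 11.27, 10.90 and 11.25, against 11.42, 11.37, 11.41 and 11.42 in untreated lungs (-0.29 ± 0.07, adjusted p = 0.00141, limma). Replicate 2 of the inhaled samples lay below the other two, and the fall was lost within slide 2, which did not hold that sample.

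Psap (prosaposin, precursor of the saposins that present lipids to hydrolases) measured 14.70, 15.07, 14.65 and 15.16 in aspirated rCNT lungs, against 14.20, 13.90, 14.22 and 14.06 in aspirated PBS lungs. It rose by 0.80 ± 0.08 (1.74-fold, adjusted p = 7.53e-07, limma) with no overlap, although the exposed samples were spread out, the 2 Cy3 samples (replicates 2 and 4) lying above the 2 Cy5 samples. Inhaled rCNT lungs measured 13.54, 13.60 and 13.71, against 13.67, 13.69, 13.56 and 13.88 in untreated lungs, where the groups overlapped (-0.12 ± 0.09, adjusted p = 0.251, limma). Man2b1 (lysosomal alpha-mannosidase) measured 13.02, 13.11, 12.94 and 13.20 in aspirated rCNT lungs, against 12.52, 12.49, 12.54 and 12.40 in aspirated PBS lungs, and rose by 0.58 ± 0.05 (adjusted p = 3.71e-07, limma).

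Naglu and Glb1 rose after aspiration and fell further after inhalation, and the promoters of both hold CACGTG. Naglu (which removes N-acetylglucosamine from heparan sulfate) measured 10.22, 10.02 and 10.19 in inhaled rCNT lungs, against 10.75, 10.86, 10.87 and 10.74 in untreated lungs, a change of -0.67 ± 0.07 (1.59-fold lower, adjusted p = 7.64e-07, limma). Its rise after aspiration was 0.42 ± 0.06, with 10.74, 10.96, 10.79 and 10.91 in aspirated rCNT lungs, against 10.42, 10.47, 10.42 and 10.41 in aspirated PBS lungs. Neither pair of groups overlapped, and the aspirated rCNT samples lay at the level of the untreated ones. Glb1 (beta-galactosidase) measured 10.14, 10.19 and 10.19 in inhaled rCNT lungs, against 10.64, 10.66, 10.70 and 10.74 in untreated lungs (-0.52 ± 0.06, adjusted p = 1.86e-06, limma), and its rise after aspiration was 0.39 ± 0.05.

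Hexa (subunit of beta-hexosaminidase), Neu1 (sialidase) and Lipa (acid lipase) rose by 0.45, 0.38 and 0.26 after aspiration. Hexa (-0.33 ± 0.08) and Lipa (-0.39 ± 0.08) fell after inhalation, while Neu1 was at 0.13 ± 0.08 and Manba (beta-mannosidase), which did not pass after aspiration, fell by 0.35. The falls of Hexa, Lipa and Manba were lost within slide 3, and that of Hexa also with cyclic loess.

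Sgsh and Gla went the other way, and the samples of Sgsh differed by dye within a group. Sgsh (heparan N-sulfatase) measured 14.25, 15.14 and 14.42 in inhaled rCNT lungs, against 14.03, 14.36, 14.34 and 14.02 in untreated lungs. Its highest inhaled sample, replicate 2, was the Cy5 sample, the others were Cy3, and the groups overlapped. The change of 0.51 ± 0.10 (adjusted p = 0.000257, limma) was lost with no dye term and turned to -0.02 when the 2 probes of the gene were averaged. After aspiration Sgsh measured 15.06, 14.46, 15.23 and 14.73 in rCNT lungs, against 14.77, 15.40, 14.95 and 15.51 in PBS lungs, where replicates 1 and 3 of rCNT and 2 and 4 of PBS were Cy5. Within each dye both rCNT samples lay below both PBS samples, for Sgsh as for Gla (alpha-galactosidase A). The changes of -0.29 and -0.17 were the same without a dye term, where neither passed (adjusted p = 0.272 for Sgsh and 0.231 for Gla, limma). Gla also did not pass without aspirated rCNT replicate 2, 3 or 4 or PBS replicate 1, 2 or 4, and Sgsh without aspirated rCNT replicate 2. Over all planned settings the change ran between -0.33 and -0.13 for Sgsh and between -0.31 and -0.10 for Gla. The rise of Gla after inhalation, 0.40 ± 0.07, was lost only with median centring, where it was 0.04.

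Among the 6 membrane proteins, 2 rose and 1 fell after aspiration, while 4 fell and 2 rose after inhalation. Of everything tested, 20.6% rose and 26.5% fell after aspiration, and 32.5% fell and 28.4% rose after inhalation. Counts this small cannot be told from those shares. Npc1 (which exports cholesterol from the lysosome) had the largest fall after inhalation among the brightest probes of the 33 genes. It measured 8.29, 8.63 and 8.56 in inhaled rCNT lungs, against 9.47, 9.48, 9.59 and 9.48 in untreated lungs, a change of -1.01 ± 0.08 (2.01-fold lower, adjusted p = 5.14e-08, limma). After aspiration it measured 9.45, 9.68, 9.54 and 9.54 in rCNT lungs, against 9.59, 9.48, 9.62 and 9.62 in PBS lungs, and these groups overlapped (-0.02 ± 0.08, adjusted p = 0.856, limma). The inhaled samples thus lay below all the other samples. Its partner Npc2, a soluble cholesterol carrier, rose by 0.44 ± 0.09 after aspiration and fell by 0.29 ± 0.10 after inhalation. That fall was lost within each slide, with the slide as a block, with no dye term, with cyclic loess, and without inhaled rCNT replicate 3 or untreated replicate 3.

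Lamp1, the membrane protein whose promoter holds 4 copies of CACGTG, did not rise after aspiration. It measured 16.13, 16.16, 16.12 and 16.03 in aspirated rCNT lungs, against 16.23, 16.17, 16.23 and 16.33 in aspirated PBS lungs. All exposed samples lay below all PBS samples by a margin smaller than the spread within the groups (-0.13 ± 0.07, adjusted p = 0.175, limma). Inhaled rCNT lungs measured 15.98, 16.10 and 15.90, against 16.46, 16.54, 16.51 and 16.14 in untreated lungs. The groups did not overlap (-0.40 ± 0.08, adjusted p = 0.000439, limma), but untreated replicate 4 lay close to the inhaled samples, and the fall was lost within slide 3 and with cyclic loess.

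Lamp2 measured 12.84, 13.05 and 12.92 in inhaled rCNT lungs, against 12.29, 12.32, 12.67 and 12.30 in untreated lungs, a rise of 0.55 ± 0.11 (1.46-fold, adjusted p = 0.000416, limma) that was lost within slide 2 and with median centring. After aspiration it measured 13.12, 12.94, 12.94 and 13.04 in rCNT lungs, against 13.02, 12.61, 12.98 and 12.86 in PBS lungs, and these groups overlapped. The untreated samples were low and the other 3 groups lay at a common level. Scarb2 (a lysosomal membrane receptor that delivers glucocerebrosidase) rose by 0.42 ± 0.06 after aspiration and fell by 0.32 ± 0.07 after inhalation, the fall being lost within slide 2.

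Mcoln1 (the calcium channel TRPML1 of the lysosomal membrane) measured 11.65, 12.07, 11.69 and 11.85 in aspirated rCNT lungs, against 12.17, 11.86, 12.23 and 11.83 in aspirated PBS lungs. The groups overlapped, although within each dye both rCNT samples lay below both PBS samples. The change of -0.21 (adjusted p = 0.0342, limma) did not pass without aspirated rCNT replicate 1, 3 or 4 or PBS replicate 1, 2 or 3, nor with no dye term, but stayed between -0.25 and -0.16 over the 27 planned settings. After inhalation it measured 12.30, 12.03 and 12.39 in rCNT lungs, against 11.91, 11.93, 11.80 and 12.25 in untreated lungs. The rise of 0.21 (adjusted p = 0.0325, limma) was lost within each slide, with the slide as a block, and without inhaled rCNT replicate 2 or 3 or untreated replicate 1 or 3, and it turned to -0.17 with median centring.

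Of the 6 genes of the proton pump, 3 rose and none fell after aspiration, and after inhalation 5 fell and none rose (4 and 1 with cyclic loess, 5 and none with median centring). The shares of everything tested were 20.6% higher and 26.5% lower after aspiration. After inhalation 32.5% was lower and 28.4% higher (25.8% and 31.2% with cyclic loess, 40.1% and 15.2% with median centring). Atp6v0d1 (subunit d of the membrane part) measured 11.27, 11.42 and 11.27 in inhaled rCNT lungs, against 12.00, 12.14, 12.02 and 11.98 in untreated lungs, a change of -0.71 ± 0.06 (1.64-fold lower, adjusted p = 1.35e-07, limma). After aspiration it measured 12.24, 12.28, 12.15 and 12.27 in rCNT lungs, against 12.00, 12.01, 12.06 and 12.02 in PBS lungs (0.21 ± 0.06, adjusted p = 0.00681, limma). Neither pair of groups overlapped, and the PBS and untreated samples lay at the same level.

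Atp6v1h (subunit H, which regulates the pump) measured 8.95, 8.75 and 8.79 in inhaled rCNT lungs, against 9.70, 9.79, 9.96 and 9.63 in untreated lungs. The inhaled samples were the lowest of all 15, with a change of -0.96 ± 0.12 (1.94-fold lower, adjusted p = 4.78e-06, limma). After aspiration the groups overlapped, at 9.61, 9.77, 9.42 and 9.84 in rCNT lungs and 9.58, 9.20, 9.69 and 9.69 in PBS lungs (0.12 ± 0.11, adjusted p = 0.404, limma). Atp6ap1 (an accessory protein of the pump) measured 10.78, 11.18 and 10.94 in inhaled rCNT lungs, against 11.67, 11.55, 11.63 and 11.65 in untreated lungs, a change of -0.67 ± 0.11 (1.59-fold lower, adjusted p = 9.82e-05, limma). After aspiration it was at -0.15 ± 0.10 (adjusted p = 0.25, limma), and Atp6v1a was at 0.09 ± 0.08.

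Atp6v1b2 and Atp6v1a (subunits B and A, which bind ATP) fell after inhalation, at -0.47 ± 0.08 and -0.28 ± 0.08. The fall of Atp6v1a was lost within slide 3, with cyclic loess and without inhaled rCNT replicate 1. Atp6v1c1 (subunit C) was at 0.11 ± 0.06 after inhalation and did not pass, while after aspiration it rose by 0.30 ± 0.05. Atp6v1b2 rose by 0.25 ± 0.08 after aspiration, and this rise and that of Atp6v0d1 were lost with median centring.

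**Figure D3:**
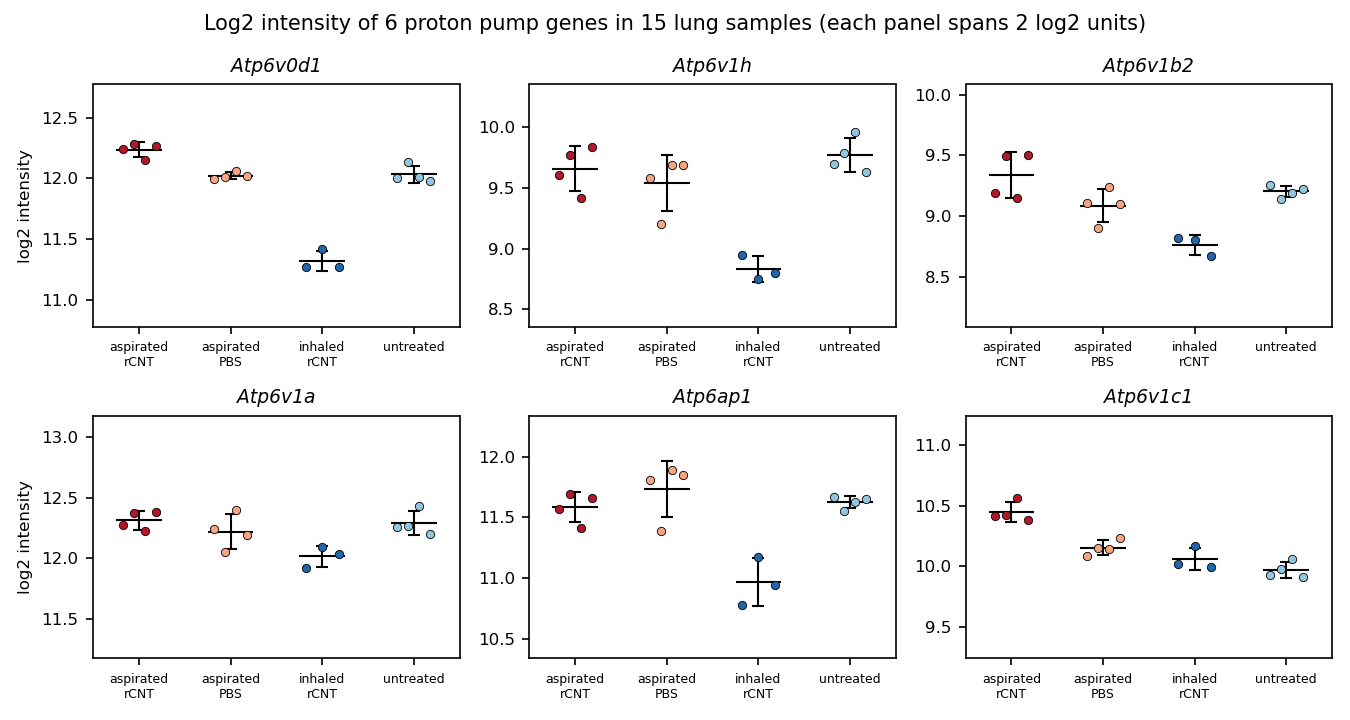
Log2 intensity (vertical axis, each panel spanning 2 log2 units) of the 6 proton pump genes in aspirated rCNT, aspirated PBS, inhaled rCNT and untreated lungs. Points are samples, and bars give the mean ± SD (n = 4, 4, 3 and 4). The inhaled rCNT samples lie below all untreated samples in each panel except that of Atp6v1c1.

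Of the 2 transcription factors, Tfe3 rose after aspiration and Tfeb passed in no comparison. Tfe3 measured 11.98, 11.99, 12.00 and 12.06 in aspirated rCNT lungs, against 11.76, 11.84, 11.72 and 11.73 in aspirated PBS lungs (0.24 ± 0.05, 1.18-fold, adjusted p = 0.0015, limma). It measured 12.03, 11.97 and 12.00 in inhaled rCNT lungs, against 12.04, 12.02, 12.12 and 11.98 in untreated lungs, and these groups overlapped. The PBS samples were thus the lowest of the 4 groups, and the other 3 groups lay at a common level.

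Tfeb measured 8.22, 8.30, 8.12 and 8.22 in aspirated rCNT lungs, against 8.48, 8.18, 8.49 and 8.24 in aspirated PBS lungs (-0.13 ± 0.22, adjusted p = 0.653, limma). In inhaled rCNT lungs it measured 8.05, 8.86 and 8.36, against 8.33, 8.77, 8.34 and 9.61 in untreated lungs (-0.35 ± 0.24, adjusted p = 0.222, limma). Untreated replicate 4 stood far above every other sample, and without it the change after inhalation was -0.03.

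The change after aspiration minus the change after inhalation was tested for each gene and passed for 28 of the 33, positive for 24 and negative for 4, with a median of 0.65. Over everything tested, 57% passed (28.4% positive and 28.5% negative) with a median of -0.01. The largest differences were those of Ctsc at 1.61 ± 0.12 (adjusted p = 3.24e-08, limma), Ctsz at 1.22 ± 0.09 and Ctsb at 1.18 ± 0.10. Sgsh, Gla, Mcoln1 and Lamp2 had the negative differences, but those of Sgsh and Lamp2 hold for the brighter of 2 probes only. The other probe was at 0.27 ± 0.11 for Sgsh (adjusted p = 0.0482, limma), against -0.80 for the brighter, and at 0.18 ± 0.11 for Lamp2, against -0.41. This test includes any difference between the PBS and the untreated samples, and here route, slide and kind of control cannot be told apart. The differences of Lamp1 (0.27) and Manba (0.27), close to the threshold, were each lost under many other settings, among them leaving out aspirated rCNT replicate 1, 2 or 4, PBS replicate 2, inhaled rCNT replicate 3 or untreated replicate 1, 2 or 3. Manba was also lost without PBS replicate 4 and Lamp1 without inhaled rCNT replicate 1, and Lamp1 turned to -0.03 with cyclic loess. That of Lamp2 (-0.41) was lost without aspirated rCNT replicate 2 or 3, PBS replicate 1 or 3, inhaled rCNT replicate 2 or untreated replicate 1, 2 or 4, and turned to 0.10 with median centring.

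The 2 kinds of control samples differed for 16 of the 33 genes, of which 6 were higher and 10 lower in PBS than in untreated lungs. Over everything tested, 59.4% passed in this comparison (26.3% higher and 33.1% lower). Sgsh at 0.97 ± 0.09, Lamp2 at 0.47 ± 0.10, Psap at 0.39 ± 0.08 and Neu1 at 0.35 ± 0.08 were higher in PBS lungs. The other probe of Sgsh was at 0.03 ± 0.07 (adjusted p = 0.742, limma) and that of Lamp2 at 0.14 ± 0.08 (adjusted p = 0.113, limma) in this comparison. Ctsc at -0.56 ± 0.08, Ctsb at -0.52 ± 0.07, Naglu at -0.37 ± 0.06, Scarb2 at -0.36 ± 0.06 and Glb1 at -0.32 ± 0.05 were lower. For these 5 genes the PBS samples lay below all untreated samples. The groups did not overlap for 4 genes above and 7 below, against 21.8% and 27.5% of everything tested. Without the shared array 7 were higher and 14 lower, with 58.2% of everything tested passing, and the counts were the same without untreated replicate 4, with 56.9% passing.

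Set against the PBS samples in place of the untreated ones, the inhaled samples were lower for 16 of the 33 genes and higher for 3, with a median of -0.17. Over everything tested, 55.2% passed (27.5% higher and 27.7% lower) with a median of -0.01. All inhaled samples lay above all PBS samples for 2 genes and below for 11, against 25.7% and 25.3% of everything tested. The 5 proton pump genes that fell against untreated lungs were also lower against PBS lungs, at -0.78 ± 0.11 for Atp6ap1, -0.73 ± 0.12 for Atp6v1h, -0.70 ± 0.06 for Atp6v0d1, -0.35 ± 0.08 for Atp6v1b2 and -0.21 ± 0.08 for Atp6v1a. Npc1 (-1.08 ± 0.08), Ctsl (-0.54 ± 0.08) and Naglu (-0.30 ± 0.07) were lower against both controls. Ctsc (0.04 ± 0.09), Hexa (-0.17 ± 0.08), Scarb2 (0.03 ± 0.07), Npc2 (-0.12 ± 0.10), Ctsd (-0.02 ± 0.08) and Manba (-0.13 ± 0.08) fell against untreated lungs and did not pass against PBS lungs. For Ctsd this holds for the brighter probe only, the other being at -1.62 ± 0.12 (3.08-fold lower, adjusted p = 4.66e-08, limma) against PBS lungs. Ctsb was higher by 0.51 ± 0.07, Psap was lower by 0.51 (-0.51 ± 0.09), and Sgsh, higher against untreated lungs, was lower against PBS lungs (-0.46 ± 0.10). The comparisons share the inhaled samples, and the one with PBS crosses slides.

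For 7 of the 33 genes a second probe passed the filter. The 2 probes of Ctsd stood apart after inhalation, at -0.25 ± 0.08 for the brighter and -1.51 ± 0.12 for the other (2.86-fold lower, adjusted p = 3e-08, limma), but not after aspiration, at 0.35 ± 0.07 and 0.38 ± 0.11. Those of Sgsh were at 0.51 ± 0.10 and -0.56 ± 0.08 after inhalation and at -0.29 after aspiration for both. The second probe of Ctsa, designed on another transcript, was far dimmer, measuring 7.36 to 8.00, against 13.29 to 14.51 for the brighter probe. This second probe was at -0.06 ± 0.07 after aspiration, against 0.48 ± 0.12 for the brighter probe, and fell by 0.35 after inhalation. That of Lamp2, designed on another transcript, was at -0.06 ± 0.08 after inhalation, against 0.55 ± 0.11. The directions given above for Ctsa after aspiration and for Sgsh and Lamp2 after inhalation thus rest on the brighter probe, as do those of Sgsh and Lamp2 for the difference between routes and between the controls. Both probes of Atp6ap1 fell after inhalation (-0.67 and -1.17), as did those of Atp6v1a (-0.28 and -0.27), and those of Tfe3 were at 0.24 and 0.17 after aspiration (adjusted p = 0.057 for the second, limma).

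**Figure D4:**
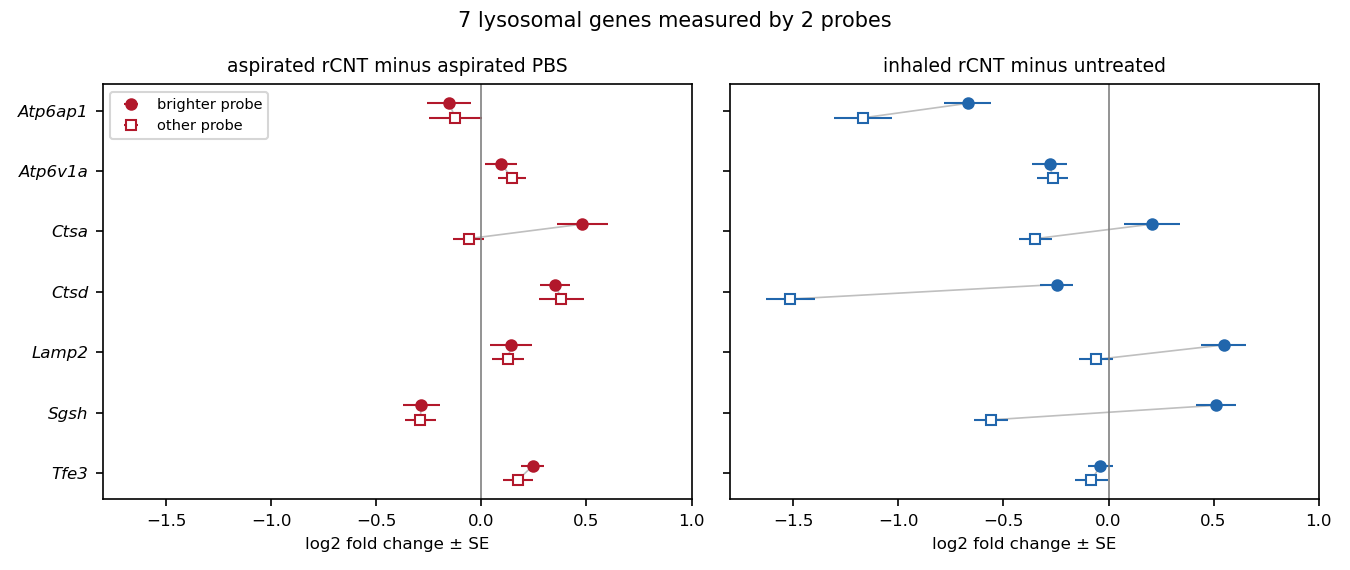
Log2 fold change with its standard error (horizontal axis) from the brighter probe (filled circles) and the other probe (open squares) of 7 lysosomal genes, after aspiration (left, red) and after inhalation (right, blue). After aspiration the probes lie apart only for Ctsa, and after inhalation they lie apart for Ctsd, Sgsh, Lamp2, Ctsa and Atp6ap1.

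The other genes of the lysosomal pathway were read from 6 lists. Among other hydrolases and their activators, 18 of 40 rose and 8 fell after aspiration, with a median of 0.14, led by Ctsk (cathepsin K, 2.37 ± 0.08), Ctss (cathepsin S, 1.55 ± 0.09) and Ifi30 (a thiol reductase, 1.47 ± 0.10). Ctsf (-0.82 ± 0.08) and Ids (-0.71 ± 0.08) fell. After inhalation 4 of the 40 rose and 31 fell, with a median of -0.47. Gm2a, activator of ganglioside breakdown, (-1.06 ± 0.07) and Fuca2, a fucosidase (-0.99 ± 0.09), fell, whereas Ctsk rose by 1.74 ± 0.08. Ctsk averaged 13.70 ± 0.08 in aspirated rCNT and 11.32 ± 0.09 in aspirated PBS lungs, and 12.64 ± 0.17 in inhaled rCNT and 10.91 ± 0.09 in untreated lungs (SD, n = 4, 4, 3 and 4).

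Other membrane proteins and transporters were split, with 10 of 31 higher and 12 lower after aspiration (median -0.02) and 4 higher and 17 lower after inhalation (median -0.24). Gpnmb, a glycoprotein of macrophages (1.64 ± 0.17), the metal transporter Slc11a1 (1.34 ± 0.12) and the channel Mcoln2 (1.28 ± 0.16) rose after aspiration, and Mcoln2 also rose after inhalation (0.69 ± 0.17). Mcoln2 averaged 8.28 in inhaled rCNT and 8.42 in aspirated PBS lungs, with the untreated lungs lower at 7.56. Slc15a3 and Slc29a3, lysosomal transporters, fell after inhalation, at -1.01 ± 0.10 and -0.98 ± 0.10.

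Of 18 other subunits of the pump, 7 rose and 2 fell after aspiration, with a median of 0.08. After inhalation 9 rose and 4 fell, with a median of 0.19. With median centring 2 rose and 6 fell, with a median of -0.11. Under that setting 15.2% of everything tested was higher and 40.1% lower, with a median of -0.15. Set against PBS lungs in the main fit, the inhaled samples were higher for 5 of the 18 and lower for 5, with a median of -0.02. In that comparison 27.5% of everything tested was higher and 27.7% lower. Tcirg1, the a3 subunit of osteoclasts and macrophages, rose after aspiration (0.72 ± 0.10) and after inhalation (0.96 ± 0.11), as did Atp6v0a4 (0.87 ± 0.10 and 0.56 ± 0.10). Tcirg1 averaged 10.42 in inhaled rCNT and 10.54 in aspirated PBS lungs, with the untreated lungs lower at 9.44. Atp6v0d2, the isoform of subunit d that is abundant in osteoclasts, rose by 1.03 ± 0.06 after aspiration. Atp6v0e and Atp6v1e1 fell after inhalation, at -0.71 ± 0.08 and -0.61 ± 0.07.

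Of 23 genes that deliver enzymes to the lysosome, 5 rose and 3 fell after aspiration (median 0.00), and 5 rose and 13 fell after inhalation (median -0.23). Gnptab, which makes the mannose 6-phosphate tag, rose by 0.60 ± 0.08 after aspiration, and the sorting receptor Sort1 fell after aspiration (-0.75 ± 0.08) and after inhalation (-0.62 ± 0.09). Of 23 regulators and relatives of TFEB and TFE3, 4 rose and 6 fell after aspiration (median -0.04), and 7 rose and 6 fell after inhalation (median 0.05, or -0.19 with median centring). Their relatives Tfec (0.79 ± 0.06) and Mitf (0.50 ± 0.08) rose after aspiration. After inhalation Zkscan3, a repressor of autophagy genes, rose by 0.77 ± 0.08, while the kinase Mtor (-0.76 ± 0.07) and the GTPase Rragc (-0.78 ± 0.06) fell.

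Of 26 autophagy genes none rose (3 with cyclic loess) and 12 fell after aspiration (median -0.18), led by Gabarapl1 (-0.79 ± 0.06) and Rb1cc1 (-0.63 ± 0.07), and 3 rose and 15 fell after inhalation (median -0.29). Sqstm1, the receptor p62, was 2.29-fold lower after inhalation (adjusted p = 4.27e-07, limma) and Pik3c3, a lipid kinase, 1.78-fold lower (adjusted p = 3.52e-07, limma). The counts of these lists are to be read against the 20.6% higher and 26.5% lower of everything tested after aspiration, and the 28.4% and 32.5% after inhalation. List medians under median centring are to be read against -0.15, the median of everything tested after inhalation in that setting.

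**Figure D5:**
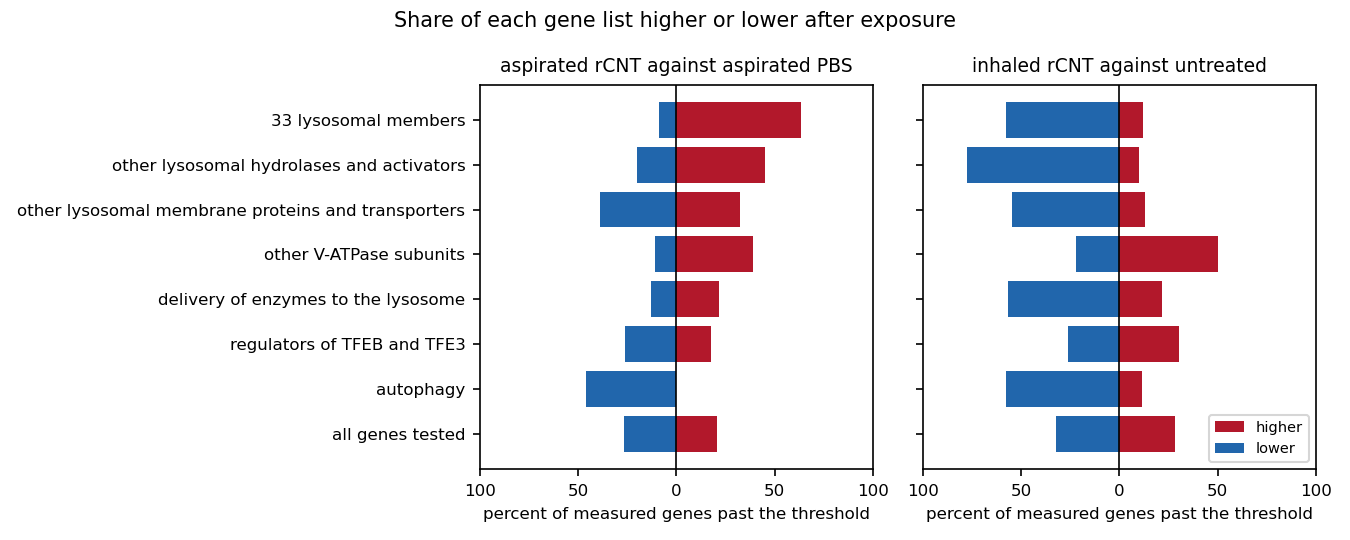
Percent of the measured genes of each list (horizontal axis) that passed an adjusted p of 0.05 as higher (red, right) or lower (blue, left), for aspirated rCNT against aspirated PBS and for inhaled rCNT against untreated. The lowest bar gives everything tested, at 20.6% higher and 26.5% lower after aspiration and 28.4% and 32.5% after inhalation.

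Markers of cell types also changed, some in the direction of most lysosomal genes and some against it. Of 14 markers of recruited macrophages and monocytes, 12 rose and 1 fell after aspiration (median 1.55), led by Spp1 (2.95 ± 0.16) and Trem2 (2.65 ± 0.13), and 6 rose and 5 fell after inhalation (median -0.10, or 0.02 with cyclic loess). Their summed intensity was 89530 to 102299 in aspirated rCNT lungs, against 56384 to 64228 in aspirated PBS lungs, and 48526 to 51951 in inhaled rCNT lungs, against 55019 to 58574 in untreated lungs. All 5 markers of osteoclasts and giant cells rose after aspiration (median 2.37), but Ctsk, Acp5 and Atp6v0d2 stand both in this list and in the lysosomal lists. After inhalation 3 of them rose, among them Ctsk and Dcstamp (needed for cell fusion, 1.12 ± 0.13), and 1 fell (median 0.25).

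Markers of resident alveolar macrophages moved both ways. Of 11 such markers 4 rose and 5 fell after aspiration (median 0.03), with Chil3, a chitinase-like protein, 4.01-fold higher (adjusted p = 7.45e-11, limma) and Cidec, a lipid droplet protein, 3.58-fold lower (adjusted p = 1.26e-08, limma). After inhalation 5 rose and 4 fell (median 0.12, or -0.36 with median centring), with Chil3 at 1.19 ± 0.10 and with Ear1, a ribonuclease, at -1.98 ± 0.11 and the receptor Siglecf at -1.71 ± 0.11. Their summed intensity was 305460 to 383046 in aspirated rCNT lungs, against 107873 to 125226 in aspirated PBS lungs, and 168380 to 187060 in inhaled rCNT lungs, against 92249 to 107783 in untreated lungs. These sums were mostly the Chil3 probe, which was singled out after its values were seen. Without it the sum of the other 10 was 43705 to 51846 in aspirated rCNT lungs, against 39245 to 45822 in aspirated PBS lungs, and 41632 to 43899 in inhaled rCNT lungs, against 39383 to 45207 in untreated lungs. Both pairs of ranges overlap.

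All 5 measured eosinophil markers rose after aspiration (median 1.69). Of 7 neutrophil markers 4 rose and 1 fell after aspiration (median 0.51). After inhalation 1 rose and 3 fell (median -0.02), with S100a8 at -2.63 ± 0.28 and S100a9 at -2.64 ± 0.28. The summed intensity of the neutrophil markers was 88611 to 111819 in aspirated rCNT lungs, against 96683 to 117285 in aspirated PBS lungs. It was 87055 to 99679 in inhaled rCNT lungs, against 82282 to 89010 in untreated lungs, and both pairs of ranges overlap. These sums rest mostly on markers other than S100a8 and S100a9. They do not show the falls of these genes after inhalation, 6.21-fold for S100a8 and 6.22-fold for S100a9. All 6 endothelial markers fell after aspiration and after inhalation, the 4 club cell markers fell after aspiration, and the 4 B cell markers fell after inhalation. All 5 ciliated cell markers rose after inhalation (median 1.57), led by Ccdc39 (2.30 ± 0.09), and 4 rose and 1 fell after aspiration (median 0.48). All 5 fibroblast markers fell after inhalation (median -0.49, with 3 lower under cyclic loess), while 2 rose and 3 fell after aspiration. Of 4 T cell markers 3 fell after inhalation (median -1.25) and 2 rose after aspiration (median 0.32). Of 5 type 1 cell markers 1 rose and 4 fell after aspiration (median -0.70), and 2 fell after inhalation (median -0.07, or 0.08 with cyclic loess). Of 9 type 2 cell markers 1 rose and 3 fell after aspiration, and 1 rose and 5 fell after inhalation. Lung markers such as Sftpc, Scgb1a1, Ager, Pecam1 and Foxj1 were well above background in all 15 samples. The part of these cell types in the changes of the lysosomal genes was not tested, and in whole tissue fewer cells of a type and less RNA per cell cannot be told apart.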

How the data were processed

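Spot intensity values of 15 lung samples were deposited as scanner output of 2-colour Agilent arrays, extracted with Agilent Feature Extraction 11.0.1.1 per the file headers; per the submitters' processing notes limma was also used. Here the median signal and local background of each sample's own channel were corrected with normexp (offset 50) over all 62976 spots, log2-transformed and quantile-normalised across all 15. Control spots and 106 to 154 outlier spots per sample were left out, and spots of a probe were averaged. Of 55681 probes, 34271 passed the filter of 3 or more samples well above background in some group. Names came from RefSeq identifiers through a table of GRCm38.p6, while the array design refers to mm9. The deposited series table, taken as log2 and correlating at 0.998 to 1 with the own channel, served as an alternative; its base, centring and background correction are not stated.

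A model of 4 groups plus dye was fitted (limma 3.58.1, R 4.3.3, functions lmFit and eBayes, two-sided tests), with Benjamini-Hochberg adjustment over 25251 genes or transcripts. It was checked on simulated data. Figures were drawn with Python 3.11.15. Alternatives changed the scaling, signal, filter, probe choice, dye term, variance model, array weights, slide and replicate blocks, and left out each sample in turn. The fits against PBS for inhaled samples and without the shared array were added after seeing the data. Named genes are all members, with sample values where an adjusted p below 0.05 came with a log2 change of at least 0.5, and for Tfeb, Tfe3, Lamp1 and Mcoln1. Of the pathway lists at most 3 rises and 2 falls per comparison could be named, and of the marker lists 2 genes; marker genes named as present were the lung markers. The members and lists were chosen with earlier results of these data known.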

Additional observations from a re-analysis of the deposited data

Results flagged for a closer look

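In 5 of the 99 groups of 4 samples tested, 1 sample lay far from the other 3, about the 1 in 20 that chance gives. They were Lamp2 at 12.67 in untreated replicate 3, Npc1 at 9.59 in untreated replicate 3, Scarb2 at 11.18 in untreated replicate 2, Neu1 at 12.10 in PBS replicate 4 and Atp6ap1 at 11.39 in PBS replicate 2. The last was the lowest PBS sample of Atp6ap1, the others lying at 11.81 to 11.89, and groups of 3 inhaled samples could not be tested in this way.

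For 28 genes the log2 change after aspiration differed from that after inhalation by a test of the difference itself (limma, adjusted p below 0.05). Among the proteases the difference, aspiration minus inhalation, was 1.61 for Ctsc, 1.22 for Ctsz, 1.18 for Ctsb, 0.87 for Ctsl, 0.60 for Ctsd and 0.53 for Ctsh. Among the enzymes of glycans and lipids it was 1.099 for Gusb, 1.09 for Naglu, 0.92 for Psap, 0.91 for Man2b1, 0.91 for Glb1, 0.78 for Hexa, 0.65 for Lipa and 0.27 for Manba, and negative for Sgsh (-0.80) and Gla (-0.58). Among the membrane proteins it was 0.99 for Npc1, 0.74 for Scarb2, 0.73 for Npc2 and 0.27 for Lamp1, and negative for Mcoln1 (-0.42) and Lamp2 (-0.41). In the proton pump it was 1.07 for Atp6v1h, 0.92 for Atp6v0d1, 0.72 for Atp6v1b2, 0.52 for Atp6ap1 and 0.37 for Atp6v1a, and for the factor Tfe3 it was 0.28. The values of Lamp1, Manba and Lamp2 did not pass under many of the other settings, and the other probe was at 0.27 for Sgsh and 0.18 for Lamp2.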

How the results depend on the processing

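After aspiration 19 of the 21 rises and none of the 3 falls passed under every planned setting, and after inhalation 10 of the 19 falls and none of the 4 rises did. Of the differences between routes, 20 of 24 positive and none of 4 negative ones passed throughout. With median centring of each channel, 0 genes fell after aspiration and 0 rose after inhalation, 0 route differences were negative, 0 were higher and 30 lower in inhaled than in PBS lungs, and 4 were lower in PBS than in untreated lungs. That setting moved the median of everything tested to -0.15 after inhalation, 0.14 for the route difference and -0.29 against PBS, and the share of higher among all that passed to 27.5%, 69.4% and 21.1%, against 46.6%, 49.9% and 49.9% with quantile normalisation; for PBS against untreated it moved to 59.1% against 44.3%. Over everything tested, median centring gave 15.2% higher and 40.1% lower after inhalation, and 13.9% higher and 51.9% lower against PBS. It gave 18.2% lower after aspiration, 15.5% negative route differences and 20.6% lower in PBS than in untreated lungs. With cyclic loess 8 genes rose after inhalation and 6 were higher against PBS, where 31.2% and 28.4% of everything tested were higher. With no dye term 0 fell after aspiration and 2 rose after inhalation, where 24.1% and 26.5% of everything tested did. The series table left 1 fall after aspiration, where 25.9% of everything tested fell. Mcoln1 after inhalation turned to -0.17 and the route difference of Lamp2 to 0.10 (median centring), the route difference of Lamp1 to -0.027 (cyclic loess), and Sgsh after inhalation to -0.024 (mean of its probes). The cause was not tested. Leaving out each sample in turn gave 21 to 21 rises and 1 to 3 falls after aspiration, 3 to 5 rises and 18 to 19 falls after inhalation, 22 to 24 positive and 3 to 4 negative differences, 2 to 3 higher and 11 to 16 lower against PBS, and 6 to 7 higher and 8 to 14 lower in PBS than in untreated lungs. Over these fits 18.3% to 21.3% of everything tested rose and 22.9% to 27.5% fell after aspiration. After inhalation 25.9% to 28.5% rose and 29.6% to 32.5% fell. The replicate block gave 21 rises and 3 falls after aspiration, against 19.8% and 25.1% of everything tested. It gave 3 rises and 19 falls after inhalation, against 27.1% and 30.8%. Deviations of samples with the same number correlated at -0.14 to 0.29. This cannot decide whether the numbers pair the samples, because samples with unlike numbers were not compared. The 3 inhaled samples, their 2 slides and controls of another kind than those of aspiration limit what the arrays can show.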
